A study of Mus musculus with 8 samples.

Results

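The cochaperones described here are the genes that bring clients to HSP70, HSP90 and the cytosolic chaperonin, or that set the pace at which those chaperones bind and hydrolyse ATP. They were taken by gene symbol from the deposited count table and comprise all J-domain genes of classes A, B and C, the subunits of the TRiC chaperonin, the 6 BAG genes, and 11 genes listed by name (Tcp1, Stip1, Chordc1, Cacybp, Ahsa1, Ptges3, Fkbp4, Hspa4, Hspa4l, Hspa9 and Hsp90ab1), without the heat shock genes Dnaja1 and Dnajb1. Of 15859 genes in the table, 62 met this rule. They were 3 class A, 9 class B and 26 class C J-domain genes, 8 TRiC subunits, 6 BAG genes, 6 HSP90 cochaperones, 2 HSP110 genes, the mitochondrial HSP70 gene Hspa9 and the HSP90 gene Hsp90ab1. Their loci are spread over 18 chromosomes. The rule goes by gene name, but it was set with earlier results of these data known.

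J-domain proteins stimulate the ATPase of HSP70 and so fix it on a client, while BAG and HSP110 proteins release the nucleotide and with it the client. HSP90 receives clients from HSP70 through STIP1 and is then steered through its cycle by AHSA1, PTGES3 (p23), FKBP4 and others. TRiC is a double ring of related subunits that encloses actin, tubulin and other newly made proteins. HSF1 is the transcription factor that induces many chaperone genes when unfolded proteins accumulate, and in the colon, whose epithelium is renewed throughout life, these factors are present without any added stress.

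RNA of the distal colon was measured by sequencing in 8 male mice, 2 in each of 4 groups, all of a BALB/c x 129SvEV background and given as 10 weeks old. WT mice and Hsf1 null littermates, which carry the null allele in every cell type, were left untreated (day 0) or received AOM-DSS and were taken at day 15. This regimen is an injection of the carcinogen azoxymethane at 10 mg/kg at 8 weeks of age, followed by 5 days of 1.5% dextran sulfate sodium, which injures the lining of the colon, in the drinking water. The sample titles give day 15, whereas the treatment text in the labels ends right after those 5 days. Each library held between 2553348 and 12440257 counts, and the cochaperone genes took 0.590% to 0.839% of them. Levels are in CPM, edgeR's counts per unit of library size after TMM scaling, which makes libraries of different depth comparable. The test was edgeR's quasi-likelihood test. A gene is called when its p, adjusted by the Benjamini-Hochberg method, is under 0.05 and its log2 fold change lies beyond 1 in either direction. Of the 62 genes, 61 were abundant enough to be tested. Dnajb7, the exception, had 1 and 0 counts in untreated WT, 0 and 3 in untreated Hsf1 null, 0 and 0 in treated WT and 8 and 2 in treated Hsf1 null mice. With 2 mice against 2, the smallest two-sided exact permutation p for a single value is 0.333, so every p given below comes from the model across genes.

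Hsf1 itself was at 36.5 to 50.5 CPM in the 4 WT mice and at 9.09 to 14.0 CPM in the 4 Hsf1 null mice. All 9 epithelial marker genes were detected, and their summed level was higher in Hsf1 null than in WT mice at both times, with 11140 to 16520 CPM in untreated WT, 17010 to 20790 in untreated Hsf1 null, 10460 to 13800 in treated WT and 18580 to 24280 in treated Hsf1 null mice. Taken singly, all 9 were higher in Hsf1 null mice at day 15, whereas at day 0 7 were higher in Hsf1 null and 2 in WT mice. The tissue was sequenced whole, so fewer cells of a type and less RNA per cell cannot be told apart in any value below. Levels of other cell types moved with the groups as well. The 5 neutrophil markers summed to 105 to 446 CPM in WT mice at day 15 against 4.65 to 19.8 CPM in Hsf1 null mice at day 15, and Ngp was at 0 in both of the latter and in all 4 untreated mice. The 4 B and plasma cell markers summed to 3000 to 3204 CPM in WT and 157 to 371 CPM in Hsf1 null mice at day 15, and the 5 smooth muscle markers to 1698 to 2873 CPM and 4060 to 5162 CPM. The 6 fibroblast markers summed to 2321 to 2344 CPM in treated WT and 438 to 1408 CPM in treated Hsf1 null mice, and the 3 endothelial markers to at least 188 CPM and at most 96.2 CPM. The part of these differences in the values of the cochaperone genes was not tested.

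Promoter stretches of 4 genes with heat shock elements, the inverted GAA units that HSF1 binds, are shown with stretches before the starts of Ahsa1 and Stip1, which had the lowest adjusted p between the treated genotypes among HSP90 cochaperones, and of Dnajc3, which holds an element of the unfolded protein response. RefSeq promoter windows on GRCm38.p6 (250 bases before to 50 after the annotated start) were found for 51 of the 62 genes, 64 windows in all, since some genes have several annotated starts. Only a stretch of each window is printed. Sequences run 5′ to 3′ on the strand of the gene, and capitals mark the fixed bases of a match.
Ahsa1: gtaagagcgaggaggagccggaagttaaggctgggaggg
Stip1: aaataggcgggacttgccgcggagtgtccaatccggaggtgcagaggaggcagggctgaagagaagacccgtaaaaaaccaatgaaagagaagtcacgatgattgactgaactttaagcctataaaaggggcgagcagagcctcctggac
Fkbp4: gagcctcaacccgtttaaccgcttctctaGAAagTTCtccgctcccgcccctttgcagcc
Chordc1: caaccgGAAcgTTCggGAAaaTTCctGAAg
Dnajb6: gctccgaGAAtcTTCcgGAAcgctagacca
Dnaja4: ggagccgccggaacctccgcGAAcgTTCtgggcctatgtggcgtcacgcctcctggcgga
Dnajc3: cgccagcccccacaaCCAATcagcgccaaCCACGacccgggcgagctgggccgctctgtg
These lie at chr12:87266659-87266697 (plus strand), chr19:7040027-7040176 (minus), chr6:128438777-128438836 (minus), chr9:18292257-18292286 (plus), chr5:29735845-29735874 (plus), chr9:54699449-54699508 (plus) and chr14:118937812-118937871 (plus), in the order printed.

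The element of 3 units, searched on both strands as TTC, GAA and TTC with any 2 bases after each of the first 2 units, occurred in 0.603% of all 32851 promoter windows and in 3 of the 64 cochaperone windows, which belong to 2 genes, Chordc1 and Dnajb6. Its shorter forms overlap it by construction. GAANNTTC was in 7.86% of all windows and in 8 of the 64 cochaperone windows, of 7 genes (Bag3, Cct2, Chordc1, Dnaja4, Dnajb6, Dnajc27 and Fkbp4). TTCNNGAA was in 8.52% of all windows and in 7 of the 64, of 6 genes (Cct5, Cct6a, Chordc1, Dnajb4, Dnajb6 and Dnajc10). The element of the unfolded protein response, the ERSE, searched on both strands as CCAAT and CCACG with any 9 bases between them, was in 0.119% of all windows and in 1 of the 64 cochaperone windows, that of Dnajc3. Neither the Ahsa1 nor the Stip1 window holds one of these letter patterns, which says nothing about factors bound elsewhere. Of the 2 genes with the longest element, Chordc1 and Dnajb6 had log2 fold changes of WT over Hsf1 null at day 15 of 0.06 and 0.16, with adjusted p of 0.94 and 0.797 in edgeR's quasi-likelihood test.

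Per kilobase of exon, Hsp90ab1 (chromosome 17, 45567775 to 45573271 on GRCm38), the constitutive cytosolic HSP90, had the highest mean level over the 4 groups, 626 CPM per kb. Bag1 followed at 161, Cct5 at 149.6, Cct2 at 97.7, Fkbp4 at 78.0 and Stip1 at 68.1 CPM per kb. The order below Hsp90ab1 was not the same in every group, since Bag1 stood at 115 and Cct5 at 119 CPM per kb in untreated WT mice. By the same mean, the highest J-domain genes of classes B, C and A were Dnajb11 at 58.6, Dnajc8 at 49.6 and Dnaja2 at 40.9 CPM per kb. In untreated WT mice, however, Dnajb9 (34.1) stood above Dnajb11 (31.6), and Dnajc4 (43.2), Dnajc10 (29.9) and Dnajc30 (28.7) above Dnajc8 (28.2 CPM per kb). The last 3 genes were Dnajc27 at 0.691, Dnajc6 at 0.291 and Dnajb7 at 0.244 CPM per kb.

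Between the genotypes at day 15, 1 of the 61 tested cochaperone genes was called, against 3.17% of all 14371 genes tested, and this gene was Ahsa1. Another 12 had an unadjusted p under 0.05, which makes 13 of 61 beside 23.2% of all genes. Of these 13, 10 were higher in WT mice and 3 were lower, where all genes had 11.6% in the first direction and 11.6% in the second. The median log2 fold change of the 61 genes was 0.06, and that of all tested genes was 0.03. In untreated mice, 0 cochaperone genes were called between the genotypes in edgeR (0% of all genes) and 0 in DESeq2, 2 genes had an unadjusted p under 0.05 (6.29% of all genes), and the median was -0.09 (0.01 over all genes). Hsf1 itself was not called there, at a log2 fold change of 1.565 (adjusted p = 0.775 in edgeR). The 0 calls therefore do not show that the untreated genotypes were alike. From day 0 to day 15, 2 of the 61 genes rose and 0 fell in WT mice (7.74% of all genes called, 3.47% higher and 4.27% lower at day 15), with a median of 0.14 against 0.00. In Hsf1 null mice 3 rose and 5 fell (11.8% of all genes called, 5.3% higher and 6.48% lower), with a median of -0.01 against 0.05. With an unadjusted p under 0.05 there were 18 genes in WT mice (27.6% of all genes) and 30 in Hsf1 null mice (32.6% of all genes). These comparisons share samples with one another.

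**Figure D1:**
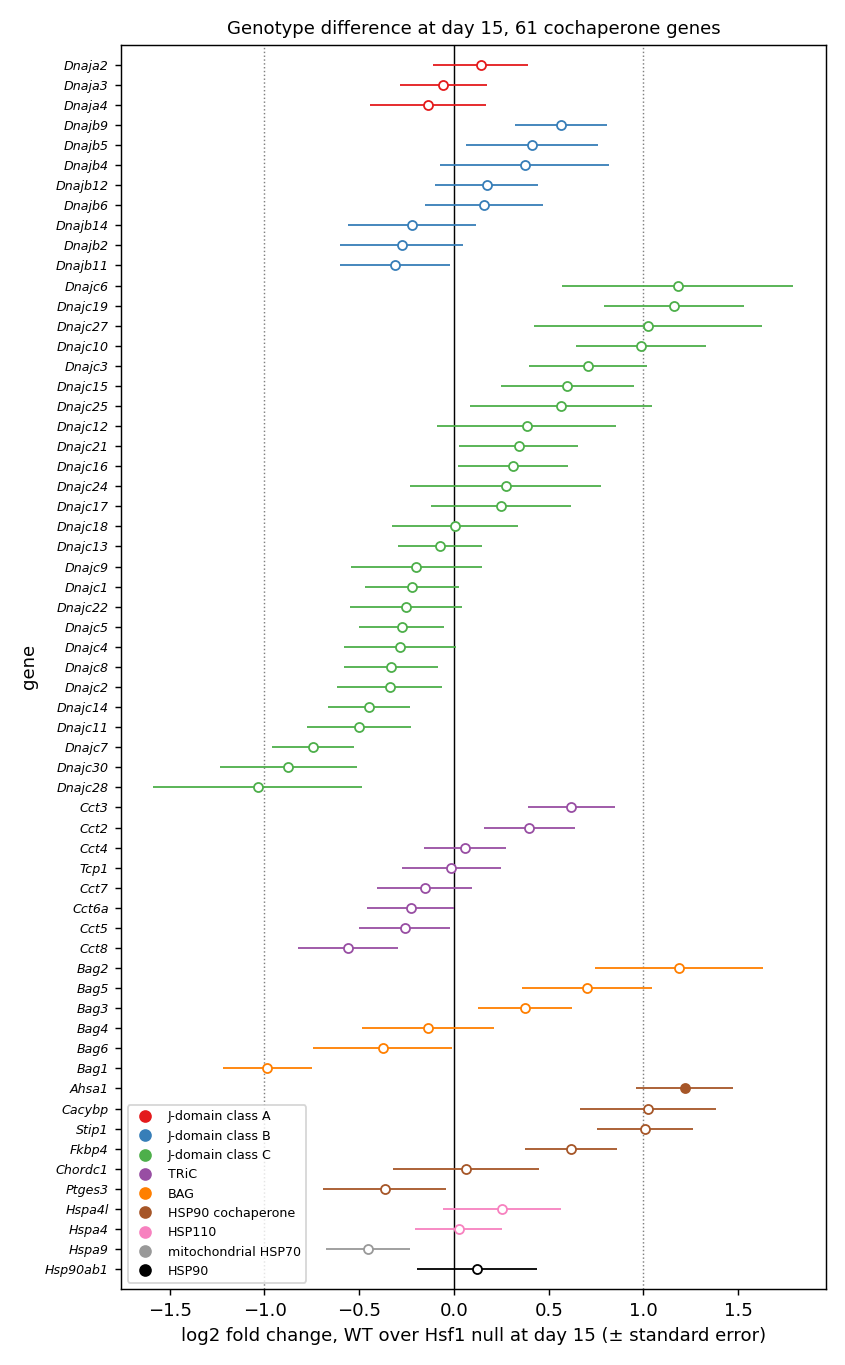
Log2 fold change of 61 cochaperone genes, WT over Hsf1 null mice at day 15, with standard errors from edgeR as bars, grouped and coloured by role. Dotted lines mark a log2 fold change of 1 in each direction, and the filled point is the called gene, Ahsa1, at 1.22. Points of each large class lie on both sides of 0.

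Among the HSP90 cochaperones, 4 of 6 genes had an unadjusted p under 0.05 between the genotypes at day 15, all higher in WT, where 23.2% of all genes had such a p and 11.6% were higher in WT. The median of the 6 log2 fold changes was 0.81, whereas that of 16 HSP90 cochaperones outside the rule was -0.04. Ahsa1 (ENSMUSG00000021037, chromosome 12, 87266479 to 87273998), the strongest known activator of the HSP90 ATPase, was at 33.2 and 31.4 CPM in untreated WT, 26.8 and 27.0 in untreated Hsf1 null, 58.3 and 80.3 in treated WT and 31.6 and 28.0 in treated Hsf1 null mice. Both treated WT mice lay above all 6 others. The log2 fold change between the genotypes at day 15 was 1.22 (standard error 0.26, adjusted p = 0.0385 in edgeR's quasi-likelihood test), and the rise in WT mice was 1.10 (adjusted p = 0.0331). In Hsf1 null mice the change was 0.15 (adjusted p = 0.726). The difference between these changes was 0.95, with an unadjusted p of 0.027 and an adjusted p of 0.52. The genotype call at day 15 held in 7 of 18 alternative analyses, with adjusted p of 0.00579 to 0.229. It was lost on leaving out any single library other than WT day 15 replicate 1, and the log2 fold change was lowest, 0.97, without WT day 15 replicate 2.

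Stip1 (ENSMUSG00000024966, chromosome 19, 7020702 to 7039967), the adaptor that joins HSP70 to HSP90, was at 134 and 137 CPM in untreated WT, 83.2 and 126.5 in untreated Hsf1 null, 206 and 239 in treated WT and 109 and 112 in treated Hsf1 null mice. Treated WT and Hsf1 null mice did not overlap, while the log2 fold change of 1.01 (standard error 0.25) had an adjusted p of 0.0606 in edgeR and of 0.0152 in DESeq2. Fkbp4 (FKBP52), an immunophilin of steroid receptor complexes, was at 149 and 183 CPM in untreated WT, 171 and 148 in untreated Hsf1 null, 305 and 356 in treated WT and 239 and 192 in treated Hsf1 null mice. It was higher at day 15 in WT mice by a log2 fold change of 0.996 (adjusted p = 0.0379 in edgeR), just under the fold limit, and by 0.69 (adjusted p = 0.108) when offsets for the GC content and length of each gene were added to the model, an alternative chosen after the data were seen. Its genotype difference at day 15 was 0.62 (adjusted p = 0.167). Cacybp, a relative of the HSP90 partner SUGT1, was at 43.6 and 54.4 CPM in untreated WT, 43.7 and 70.1 in untreated Hsf1 null, 38.4 and 73.2 in treated WT and 24.4 and 30.4 in treated Hsf1 null mice. Its genotype difference at day 15 of 1.03 (adjusted p = 0.13) came with a change of -1.04 in Hsf1 null mice (adjusted p = 0.0814), which was -0.38 (adjusted p = 0.427) with offsets for GC content and length, and of 0.19 in WT mice.

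Chordc1 and Ptges3 overlapped between the treated genotypes. Chordc1, whose window holds a run of 5 GAA units as printed above, was at 21.9 and 24.6 CPM in untreated WT, 22.3 and 37.0 in untreated Hsf1 null, 23.8 and 52.2 in treated WT and 33.8 and 38.7 in treated Hsf1 null mice. The 2 treated WT mice lay on either side of both treated Hsf1 null mice. With offsets for GC content and length, the change of Chordc1 from day 0 to day 15 was 1.41 in Hsf1 null mice, which was called (adjusted p = 0.0361 in edgeR), and 1.14 in WT mice (adjusted p = 0.0529), against 0.31 and 0.71 without them, and that of Ptges3 in Hsf1 null mice was 0.91 (adjusted p = 0.0674). Ptges3, which binds the closed form of HSP90, had a log2 fold change between the genotypes at day 15 of -0.37 (adjusted p = 0.528 in edgeR), and its treated groups overlapped, with 75.5 and 101.9 CPM in treated WT and 80.8 and 147.7 in treated Hsf1 null mice. Reads of Ptges3 could be shared with its pseudogene. Hsp90ab1 was at 1460 and 1575 CPM in untreated WT, 1369 and 880.4 in untreated Hsf1 null, 2557 and 2523 in treated WT and 2260 and 2404 in treated Hsf1 null mice. All 4 treated mice lay above all 4 untreated mice. Neither change passed in edgeR, though DESeq2 called the one in Hsf1 null mice, with log2 fold changes of 0.74 in WT mice (adjusted p = 0.164 in edgeR) and 1.05 in Hsf1 null mice (adjusted p = 0.0561), and the genotype difference at day 15 was 0.12 (adjusted p = 0.852).

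**Figure D2:**
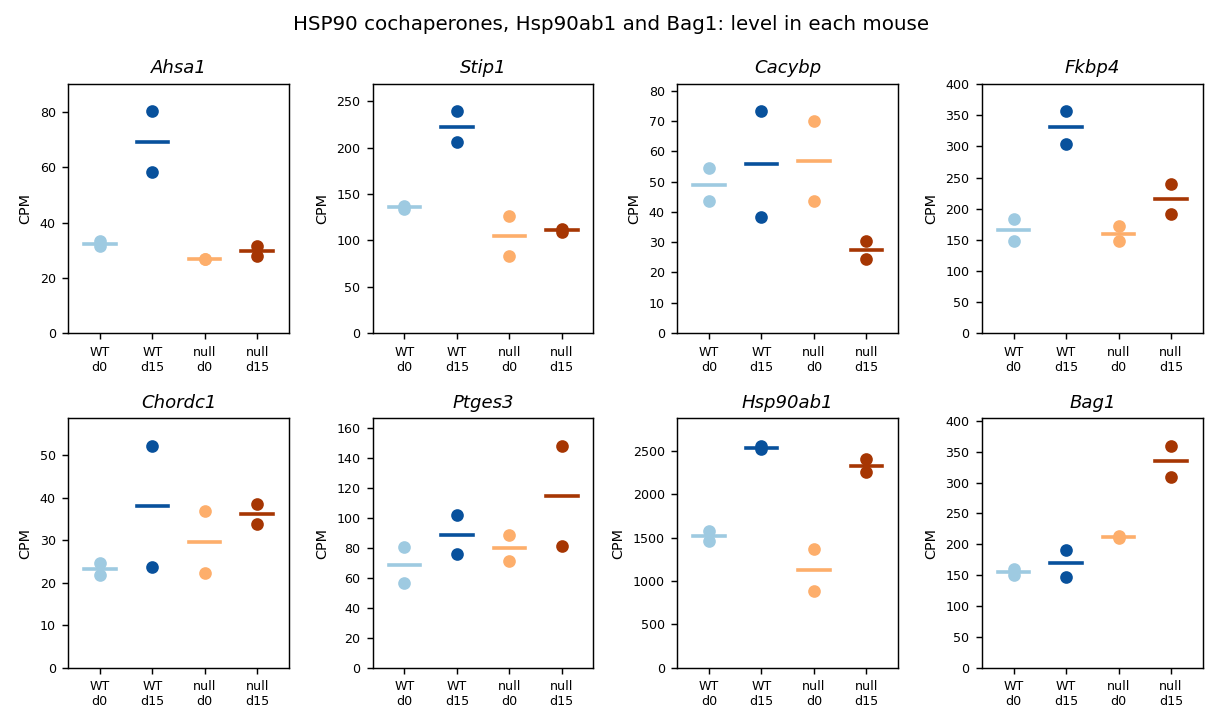
Level in CPM (y axis, from 0) of the 6 HSP90 cochaperones, Hsp90ab1 and Bag1 by genotype (WT, and null for Hsf1 null) and day (d0 and d15). Each point is 1 mouse and each bar the mean of 2 mice. In Ahsa1 and Stip1 the 2 treated WT mice stand above the other groups, in Hsp90ab1 both treated groups stand above both untreated groups, and in Bag1 the 2 treated Hsf1 null mice stand above the rest.

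The 2 HSP110 genes and Hspa9, partners and relatives of HSP70, were not called in any comparison by edgeR or DESeq2, and an unadjusted p under 0.05 in edgeR was found for Hspa4 in WT and Hspa9 in Hsf1 null mice from day 0 to day 15, beside 27.6% and 32.6% of all genes. Hspa4, an HSP110 nucleotide exchange factor, was at 111 and 97.3 CPM in untreated WT, 116 and 139.8 in untreated Hsf1 null, 157 and 188 in treated WT and 156 and 182 in treated Hsf1 null mice. The treated mice of both genotypes lay above the untreated mice of their own genotype, with log2 fold changes of 0.72 (adjusted p = 0.0829 in edgeR) and 0.41 (adjusted p = 0.253). Hspa4l had a genotype difference at day 15 of 0.25 on the log2 scale (adjusted p = 0.66). Hspa9, the HSP70 of the mitochondrial matrix, was at 241 and 249 CPM in untreated WT, 247 and 276 in untreated Hsf1 null, 267 and 271 in treated WT and 370 and 368 in treated Hsf1 null mice. The treated groups did not overlap, but the genotype difference of -0.46 had an adjusted p of 0.247. Reads of Hspa9 could be shared with its named pseudogene.

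The 6 BAG genes split 3 to 3 in direction between the genotypes at day 15. By edgeR and by DESeq2 0 were called, and 2 had an unadjusted p under 0.05 in edgeR, where 3.17% of all genes were called and 23.2% had such a p. Bag1 (ENSMUSG00000028416, chromosome 4, 40936398 to 40948294), which couples HSP70 to the proteasome, was at 150 and 159.6 CPM in untreated WT, 211 and 213.5 in untreated Hsf1 null, 190.2 and 148 in treated WT and 359 and 309.6 in treated Hsf1 null mice. Hsf1 null mice lay above WT mice at both times. The log2 fold change of WT over Hsf1 null was -0.98 at day 15 (standard error 0.23, adjusted p = 0.0537 in edgeR) and -0.46 at day 0 (adjusted p = 0.794). Bag2, an inhibitor of the ubiquitin ligase CHIP, stood the other way, with 28.8 and 24.6 CPM in untreated WT, 16.5 and 14.0 in untreated Hsf1 null, 17.9 and 9.61 in treated WT and 3.88 and 8.16 in treated Hsf1 null mice. Its differences of 0.80 at day 0 and 1.19 at day 15 had adjusted p of 0.794 and 0.148. Bag3, which works with HSPB8 in selective autophagy, was at 80.2 and 80.7 CPM in treated WT and 64.1 and 60.1 in treated Hsf1 null mice, a log2 difference of 0.37 (adjusted p = 0.391), and at day 0 the difference was 0.57 (adjusted p = 0.783).

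Bag4, also known as silencer of death domains, and Bag5 had log2 genotype differences at day 15 of -0.14 and 0.70, with adjusted p of 0.85 and 0.25 in edgeR. Bag6, which guards newly made membrane proteins in the cytosol, was at 222 and 280.3 CPM in untreated WT, 258 and 124 in untreated Hsf1 null, 396 and 248 in treated WT and 462 and 374 in treated Hsf1 null mice. Treated WT and Hsf1 null mice overlapped. The change of Bag6 in Hsf1 null mice was 1.13 (adjusted p = 0.0705 in edgeR), which DESeq2 called, and 0.61 (adjusted p = 0.216 in edgeR) with offsets for GC content and length.

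The 8 TRiC subunits, which are assembled in equal numbers in the complex, had log2 fold changes in both directions, and no test compared one subunit with another. From day 0 to day 15, 7 of 8 had positive log2 fold changes in WT mice (median 0.41) and 6 of 8 in Hsf1 null mice (median 0.39), and 0 passed the threshold in WT mice and 1, Cct7, in Hsf1 null mice, beside 7.74% and 11.8% of all genes. Cct7 (ENSMUSG00000030007, chromosome 6, 85451514 to 85468475) was at 162.5 and 161.6 CPM in untreated WT, 179.6 and 124 in untreated Hsf1 null, 290.1 and 268 in treated WT and 280.4 and 341 in treated Hsf1 null mice. All treated mice lay above all untreated mice. The log2 fold change was 1.03 in Hsf1 null mice (standard error 0.26, adjusted p = 0.0318 in edgeR) and 0.78 in WT mice (adjusted p = 0.0828). Cct4 stood the other way, at 152 and 164 CPM in untreated WT, 177 and 189 in untreated Hsf1 null, 109 and 118 in treated WT and 100.5 and 118 in treated Hsf1 null mice. All treated mice lay below all untreated mice, with log2 fold changes of -0.74 in Hsf1 null mice (adjusted p = 0.0503) and -0.47 in WT mice (adjusted p = 0.189). Neither was called, and with offsets for GC content and length they were -0.39 (adjusted p = 0.252 in edgeR) and -0.34 (adjusted p = 0.309).

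Between the genotypes at day 15 the TRiC subunits ran from -0.56 for Cct8 (adjusted p = 0.233 in edgeR) to 0.62 for Cct3 (adjusted p = 0.147). Cct3 was at 124 and 147 CPM in treated WT and 76.3 and 100.4 in treated Hsf1 null mice, whereas Cct8 was at 129 and 133 CPM in treated WT and 151 and 235 in treated Hsf1 null mice. Neither pair of treated groups overlapped, and neither difference passed the test. Cct2 had a difference of 0.40 (adjusted p = 0.343), Cct4 of 0.06, Tcp1 of -0.01, Cct7 of -0.15, Cct6a of -0.23 and Cct5 of -0.26 (adjusted p = 0.549). Untreated WT and Hsf1 null mice differed by -0.22 to 0.29 on the log2 scale over the 8 subunits, with 0.851 as the smallest adjusted p. Exons of Cct6a, Cct7, Cct8 and Tcp1 overlap those of a gene on the opposite strand, and Tcp1 and Cct3 have a named pseudogene, so part of their counts may belong to another locus. Whether counting used strand is not given in the sources used here.

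**Figure D3:**
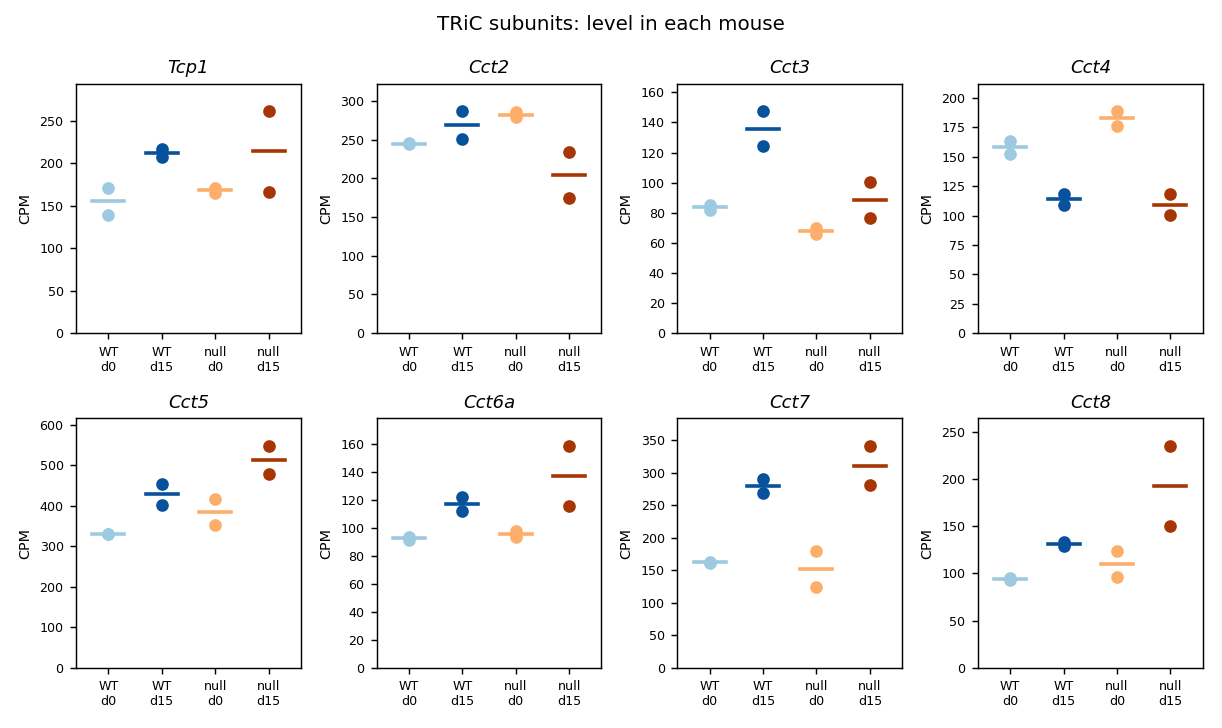
Level in CPM (y axis, from 0) of the 8 TRiC subunits by genotype (WT, and null for Hsf1 null) and day (d0 and d15). Each point is 1 mouse and each bar the mean of 2 mice. Cct7 is higher in all treated mice and Cct4 is lower in all treated mice than in any untreated mouse.

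Of the 37 tested J-domain genes, 1 was called in WT mice and 7 in Hsf1 null mice from day 0 to day 15 (7.74% and 11.8% of all genes). Between the genotypes 0 were called in edgeR at either time, 6 had an unadjusted p under 0.05 at day 15 and 1 at day 0 (23.2% and 6.29% of all genes), and DESeq2 called 1, Dnajc19, at day 15. Dnajb1, a J-domain gene that the rule leaves out, was called between the genotypes at day 15 and is given below with the heat shock genes. Of the 5 J-domain genes of the endoplasmic reticulum, partners of the HSP70 BiP, Dnajb11 was called higher in both genotypes and Dnajb9 lower in Hsf1 null mice. Dnajc1, Dnajc3 and Dnajc10 were not called from day 0 to day 15. Dnajb11 (ERdj3; ENSMUSG00000004460, chromosome 16, 22857845 to 22879634), which binds unfolded secretory proteins, was at 115.5 and 89.3 CPM in untreated WT, 124 and 88.0 in untreated Hsf1 null, 208 and 282 in treated WT and 250.7 and 358 in treated Hsf1 null mice. All treated mice lay above all untreated mice. It rose by 1.25 on the log2 scale in WT mice (standard error 0.30, adjusted p = 0.0336 in edgeR) and by 1.52 in Hsf1 null mice (adjusted p = 0.0189).

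Dnajb9 (ERdj4; ENSMUSG00000014905, chromosome 12, 44205559 to 44210326), which keeps the stress sensor IRE1 bound to BiP, was at 80.8 and 92.9 CPM in untreated WT, 75.2 and 79.4 in untreated Hsf1 null, 36.7 and 50.2 in treated WT and 29.8 and 28.9 in treated Hsf1 null mice. All treated mice lay below all untreated mice, the reverse of Dnajb11. It fell by 1.40 on the log2 scale in Hsf1 null mice (adjusted p = 0.0152 in edgeR), and with offsets for GC content and length the change was -0.75 and not called (adjusted p = 0.106). The change in WT mice was -0.997 (adjusted p = 0.0368), just inside the fold limit and so not called. Dnajc3 (p58IPK), whose window holds the element of the unfolded protein response printed above, was at 149 and 110 CPM in untreated WT, 93.8 and 147 in untreated Hsf1 null, 115 and 119 in treated WT and 54.4 and 88.8 in treated Hsf1 null mice. Dnajc10 (ERdj5), a reductase of disulfide bonds, was at 163 and 137 CPM in untreated WT, 122 and 202 in untreated Hsf1 null, 183 and 206 in treated WT and 67.5 and 129 in treated Hsf1 null mice. In both, treated WT mice lay above treated Hsf1 null mice, and the log2 differences of 0.71 and 0.99 had adjusted p of 0.208 and 0.128. Dnajc1, a membrane protein of the same compartment, had changes of 0.58 in WT mice (adjusted p = 0.173) and 0.75 in Hsf1 null mice (adjusted p = 0.0757).

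Of the 6 mitochondrial J-domain genes, 0 were called in WT mice and 3 in Hsf1 null mice from day 0 to day 15, beside 7.74% and 11.8% of all genes. Of these 3, 1 was higher (Dnajc11) and 2 were lower (Dnajc15 and Dnajc19). Dnajc11 (ENSMUSG00000039768, chromosome 4, 151933691 to 151982137), which helps to shape the inner membrane, was at 41.7 and 42.1 CPM in untreated WT, 54.6 and 30.9 in untreated Hsf1 null, 83.5 and 75.0 in treated WT and 106 and 118 in treated Hsf1 null mice. It rose by 1.37 on the log2 scale in Hsf1 null mice (standard error 0.28, adjusted p = 0.0207 in edgeR), and its change in WT mice was 0.92 (adjusted p = 0.0713). Dnajc19 (TIM14), a part of the protein import motor, was at 23.8 and 48.8 CPM in untreated WT, 37.6 and 44.2 in untreated Hsf1 null, 36.0 and 30.4 in treated WT and 11.9 and 17.7 in treated Hsf1 null mice. Both treated Hsf1 null mice lay below all other mice, and the fall in Hsf1 null mice of -1.46 had an adjusted p of 0.035, but was -0.78 (adjusted p = 0.224) with offsets for GC content and length. Exons of Dnajc19 overlap those of Fxr1 on the opposite strand, and it has a named pseudogene. Dnajc15 (MCJ), a relative of Dnajc19 in the inner membrane, was at 16.2 and 24.2 CPM in untreated WT, 25.8 and 41.3 in untreated Hsf1 null, 19.8 and 20.7 in treated WT and 11.01 and 15.7 in treated Hsf1 null mice. It fell by 1.31 in Hsf1 null mice (adjusted p = 0.0417), a call that the offsets also ended (-0.82, adjusted p = 0.138), while in WT mice the change was 0.03 (adjusted p = 0.973).

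For Dnajc15 and Dnajc19 the difference between genotypes in the change was 1.34 and 1.36 on the log2 scale, with unadjusted p of 0.0238 and 0.026 and adjusted p of 0.51 and 0.52 in edgeR. The other 3 mitochondrial genes were not called in edgeR, while DESeq2 called Dnajc30 in Hsf1 null mice and Dnajc28 in WT mice from day 0 to day 15. Dnajc30, a partner of ATP synthase, was at 63.5 and 38.1 CPM in treated WT and 104 and 82.4 in treated Hsf1 null mice, with a log2 genotype difference of -0.88 (adjusted p = 0.185) and a change of 1.08 in Hsf1 null mice (adjusted p = 0.0769). Dnajc28 was low, at 5.29 and 7.54 CPM in untreated WT, 9.77 and 10.1 in untreated Hsf1 null, 1.65 and 2.01 in treated WT and 5.43 and 2.14 in treated Hsf1 null mice. Its change of -1.77 in WT mice had an adjusted p of 0.0759. Dnaja3 (TID1), the partner of Hspa9, had log2 fold changes of -0.19 to 0.11 over the 4 comparisons between groups.

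**Figure D4:**
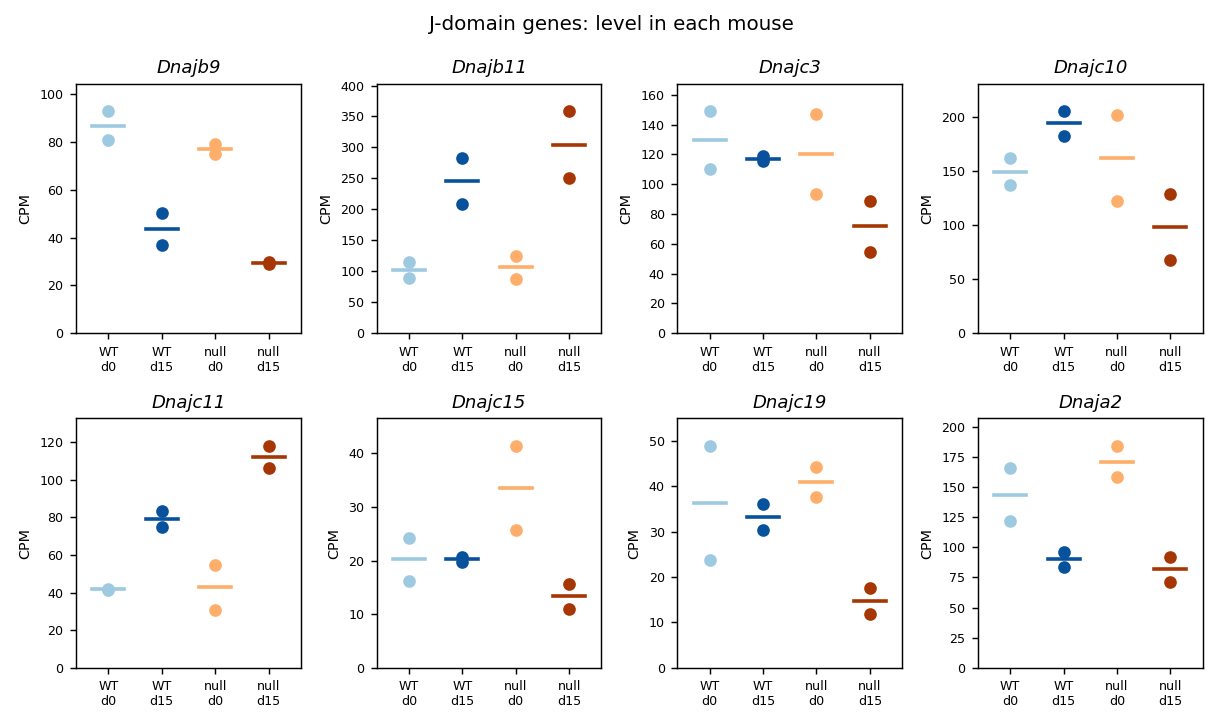
Level in CPM (y axis, from 0) of 8 J-domain genes, 4 of the endoplasmic reticulum (Dnajb9, Dnajb11, Dnajc3, Dnajc10), 3 of mitochondria (Dnajc11, Dnajc15, Dnajc19) and the cytosolic Dnaja2, by genotype (WT, and null for Hsf1 null) and day (d0 and d15). Each point is 1 mouse and each bar the mean of 2 mice. Dnajb9 and Dnajb11 move in opposite directions, and Dnajc15 and Dnajc19 are lowest in treated Hsf1 null mice.

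Among the J-domain genes of the cytosol, Dnaja2 (ENSMUSG00000031701, chromosome 8, 85537633 to 85555344), a general partner of HSP70, was at 121.5 and 166 CPM in untreated WT, 158 and 184 in untreated Hsf1 null, 83.9 and 96.1 in treated WT and 71.5 and 91.8 in treated Hsf1 null mice. All treated mice lay below all untreated mice. The fall of -1.06 in Hsf1 null mice had an adjusted p of 0.0287 in edgeR, and with offsets for GC content and length it was -0.56 and not called (adjusted p = 0.159). The change in WT mice was -0.67 (adjusted p = 0.12). Dnajb4 (HLJ1) was at 17.0 and 14.3 CPM in untreated WT, 14.1 and 23.7 in untreated Hsf1 null, 5.57 and 8.56 in treated WT and 3.88 and 6.96 in treated Hsf1 null mice. It too was lower in all treated mice, by -1.77 in Hsf1 null mice (adjusted p = 0.0348, and -1.10 with the offsets, adjusted p = 0.0977) and -1.16 in WT mice (adjusted p = 0.125, not called). Dnaja4, whose whole window holds 2 matches to GAANNTTC, was at 15.3 and 15.1 CPM in untreated WT and 25.5 and 23.0 in untreated Hsf1 null mice, a log2 difference of -0.68 (adjusted p = 0.794). At day 15 that difference was -0.14, and exons of Dnaja4 overlap those of Wdr61. Dnajb2, a ubiquitin-binding J-domain protein, had changes of 0.56 in WT mice and 0.80 in Hsf1 null mice, with adjusted p of 0.301 and 0.126.

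Class C holds J-domain proteins with single tasks. Dnajc8, a factor of the spliceosome, was at 69.98 and 74.2 CPM in untreated WT, 134 and 93.8 in untreated Hsf1 null, 133 and 151 in treated WT and 159.9 and 198 in treated Hsf1 null mice. In WT mice it was higher at day 15 by 0.98 (adjusted p = 0.0434 in edgeR, under the fold limit), and at day 0 the genotype difference was -0.67 (unadjusted p = 0.0245, adjusted p = 0.775). With no limit on the fold, 5 cochaperone genes passed in WT mice (Ahsa1, Dnajb11, Fkbp4 and Dnajc8 higher, Dnajb9 lower), beside 8.13% of all genes. With offsets for GC content and length in the model, Dnajb9 (-0.80, adjusted p = 0.0814) and Fkbp4 (0.69, adjusted p = 0.108) no longer did, while Hspa4 (0.84, adjusted p = 0.0361), Cct3 (0.84, adjusted p = 0.0423) and Dnajc2 (1.01, adjusted p = 0.049) newly did. Dnajc7 (TPR2), which binds both HSP70 and HSP90, was at 111 and 105 CPM in treated WT and 163 and 198.5 in treated Hsf1 null mice and at 99.7 and 99.7 CPM against 129 and 126 at day 0. WT mice lay below Hsf1 null mice at both times, and the difference of -0.74 at day 15 had an adjusted p of 0.0846. Exons of Dnajc7 overlap those of Cnp and Nkiras2.

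Dnajc2 (zuotin), which acts at the ribosome, and the histone chaperone Dnajc9 had changes in WT mice of 0.75 and 0.76 (adjusted p = 0.122 and 0.196 in edgeR) and in Hsf1 null mice of 0.85 and 0.77 (adjusted p = 0.0719 and 0.166). Dnajc12, a partner of aromatic amino acid hydroxylases, had a change of -1.41 in Hsf1 null mice (adjusted p = 0.0752) and of -0.80 in WT mice (adjusted p = 0.297). Dnajc14 had a genotype difference at day 15 of -0.45 (adjusted p = 0.243). Auxilin (Dnajc6), which uncoats clathrin vesicles, and the RAB-like Dnajc27 had differences of 1.18 and 1.02 at day 15 that rested on 7 to 62 counts in each treated library, with adjusted p of 0.276 and 0.334. In untreated mice the J-domain genes highest in WT relative to Hsf1 null were Dnajb5 at 0.57, Dnajb12 at 0.46, Dnajb14 at 0.26, Dnajb9 at 0.17 and Dnajc4 at 0.14, and the lowest were Dnajc15 at -0.74, Dnaja4, Dnajc8, Dnajc28 at -0.66 and Dnajc21 at -0.48. The adjusted p of these 10 genes ran from 0.775 to 0.951.

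The change in Hsf1 null mice was compared with the base composition of the transcripts. Over 13867 genes, the log2 fold change from day 0 to day 15 in Hsf1 null mice had a Spearman correlation with GC content of 0.50, and over the 61 cochaperone genes of 0.42. In WT mice these values were 0.29 and 0.16, and for the genotypes at day 15 they were -0.04 and -0.20. The points share libraries, and within single libraries the correlation of the level relative to the mean ran from -0.58 in Hsf1 null day 0 replicate 2, one of the 2 smallest libraries, to 0.43 in Hsf1 null day 15 replicate 1. GC content of the cochaperone transcripts ran from 35.7% for Chordc1 to 59.9% for Bag6, with a median of 47.2%. When offsets for GC content and length were added to the model, 6 cochaperone genes were called in Hsf1 null mice, all higher at day 15. These were Cct7, Cct8, Chordc1, Dnajb11, Dnajc2 and Dnajc11, 3 of which were also called without offsets.

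With these offsets the changes in Hsf1 null mice were 1.37 for Dnajb11 (adjusted p = 0.0279 in edgeR), 1.22 for Dnajc11 (adjusted p = 0.0356) and 1.42 for Cct7 (adjusted p = 0.0306). None of the 5 falls was then called. They ran from -1.10 for Dnajb4 to -0.56 for Dnaja2. Bag2, not called in edgeR with or without them but called by DESeq2, went from -1.34 to -1.51. Of the other changes in Hsf1 null mice that were not called in edgeR, Dnajc30 went from 1.08 to 0.64, Dnajb2 from 0.80 to 0.28 and Cct4 from -0.74 to -0.39. Chordc1, with the lowest GC content of the set, went from 0.31 to 1.41 (adjusted p = 0.0361). Calls of the 8 genes in Hsf1 null mice also rested on single libraries. Without Hsf1 null day 0 replicate 2 or without Hsf1 null day 15 replicate 2, 0 genes were called, and without Hsf1 null day 15 replicate 1 there were 2, Dnajb11 and Dnajb9. In WT mice, 4 genes were called with the offsets (Ahsa1, Dnajb11, Dnajc2 and Dnajc8), and 0 without either WT mouse at day 0 or without WT day 15 replicate 2. The genotype difference of Ahsa1 at day 15 was 1.12 with the offsets (adjusted p = 0.034).

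**Figure D5:**
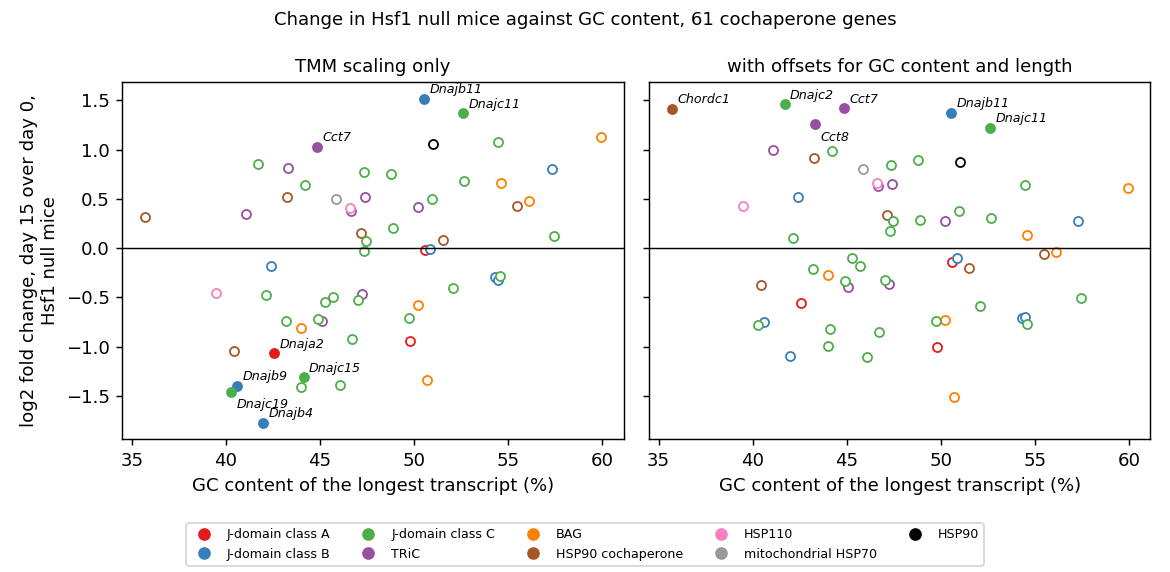
Log2 fold change from day 0 to day 15 in Hsf1 null mice (y axis) against the GC content in percent of the longest transcript (x axis) for 61 cochaperone genes, with TMM scaling only (left) and with offsets for GC content and length (right). Filled, named points are called genes, 8 on the left and 6 on the right, and colours give the role. The 5 called falls on the left lie between 40.3% and 44.1% GC, and no fall is called on the right.

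No cochaperone gene passed the test for unequal change with treatment in WT and Hsf1 null mice, in edgeR or in DESeq2, which 0.00696% of all genes passed. An unadjusted p under 0.05 was found in 5 of 61 genes (8.62% of all genes), namely Ahsa1, Cacybp, Dnajc10, Dnajc15 and Dnajc19, all with the higher change in WT mice, and the median difference was 0.10 (0.00 over all genes). Cacybp had a difference of 1.24 with a standard error of 0.51 (adjusted p = 0.562 in edgeR), and Dnajc10 of 1.09 with 0.48 (adjusted p = 0.574).

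Other genes of the chaperone network were read from lists outside the rule. Of 16 other HSP90 cochaperones tested, 1 rose in WT mice and 3 rose in Hsf1 null mice from day 0 to day 15. Between the genotypes at day 15, 0 were called and 3 had an unadjusted p under 0.05, 2 higher and 1 lower in WT mice. Their log2 fold changes there were above 0 for 6 genes and below 0 for 10, with a median of -0.04. Of all genes, 7.74% were called in WT mice, 11.8% in Hsf1 null mice and 3.17% between the genotypes at day 15, where 23.2% had an unadjusted p under 0.05, and these shares apply to each list that follows. Pih1d1, a subunit of the R2TP complex, rose by 1.02 in WT mice (adjusted p = 0.0481 in edgeR) and by 2.09 in Hsf1 null mice (adjusted p = 0.0123). Stub1, which encodes the ubiquitin ligase CHIP, rose by 1.76 and Tomm34 by 1.43 in Hsf1 null mice. Of 7 nucleotide exchange factors and other HSP70 partners, Hspbp1 rose in both genotypes, by 1.25 in WT mice and 1.16 in Hsf1 null mice, and Sil1 rose by 1.30 in Hsf1 null mice. Among 11 prefoldin subunits and other TRiC partners, Pfdn6 rose by 1.53 and Vbp1 fell by 1.86 in Hsf1 null mice, with adjusted p of 0.0305 and 0.0215. None of the 10 tested HSP70 and HSP90 chaperones outside the rule was called in any of the 5 comparisons in edgeR, and 3 of them had an unadjusted p under 0.05 between the genotypes at day 15, all with higher means in WT mice. Of these 3, Hspa8 did not overlap between the treated groups. Hspa1a and Hspa1b overlapped, with 10.4 and 73.5 CPM and 15.1 and 107.7 CPM in treated WT replicates 1 and 2, against 5.43 and 12.0 CPM and 8.69 and 15.3 CPM in the treated Hsf1 null mice, so that replicate 2 of the treated WT mice stood apart. Of 9 heat shock genes, 1 was called between the genotypes at day 15, Dnajb1, at 1.62 (adjusted p = 0.0277), and their median was 1.12 at day 15 and 0.55 at day 0, beside 0.06 and -0.09 for the 61 cochaperone genes. In this list too the treated WT mice differed, with 28.5 and 94.3 CPM of Hsph1 and 63.1 and 142.8 CPM of Dnaja1 in replicates 1 and 2.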

How the data were processed

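Distal colon RNA of 8 mice was sequenced, and the sample titles gave each mouse its genotype, day and number. Polyadenylated RNA was prepared with a SENSE mRNA-seq kit, and reads were aligned to mm10 with STAR. The authors deposited raw counts per gene symbol, which were used here, and a second table of the same counts normalized with DESeq2, which was not used. The counting program and annotation are not given in the sources used here. Total counts were 2553348 to 12440257 per sample, so the 2 smallest libraries set the precision of low genes.

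The quasi-likelihood test of edgeR 4.0.16 (R 4.3.3, TMM scaling) was run as 1 model with a mean for each of the 4 groups. Genes whose normalized counts averaged more than 5 entered it, 14371 in number. There were 5 contrasts: the genotypes at each day, the days in each genotype, and the interaction. Benjamini-Hochberg adjustment was made within each. All tested genes, not only cochaperones, entered the fit and the adjustment. Same-numbered mice are different animals. No label says that they shared a litter or a day, so the model has no block. Positions, exon lengths and GC content come from GENCODE on GRCm38, where 15276 of 15859 symbols matched (96.3%), all 62 cochaperone genes among them. Overlaps with other genes are named above for some genes only. Exons of Ahsa1, Bag2, Bag4, Dnaja3, Dnajb6, Dnajb9, Dnajb14, Dnajc1, Dnajc13, Dnajc14, Dnajc17, Dnajc24, Dnajc25 and Dnajc30 also overlap those of another annotated gene. Promoter windows come from RefSeq.

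Members, gene lists, tests and alternatives were chosen with earlier results of these data known. Genes named are every TRiC, BAG, HSP90 and HSP70 partner of the rule, J-domain genes with an adjusted p under 0.05 or among the 5 highest or lowest log2 fold changes of a comparison, the most abundant of each class, and other genes that passed. Alternatives were DESeq2 1.42.0, its size factors in edgeR, other filters on low counts, no fold limit, a replicate block, thinning to the smallest library, a fit of the compared groups alone, and leaving out each sample in turn. Offsets for GC content and length (splines with 4 degrees of freedom) and an exchanged block were added after the data were seen. The fits were tested on simulated data.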

Additional observations from a re-analysis of the deposited data

How the results depend on the processing

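Between the genotypes at day 15, where 1 cochaperone gene was called, DESeq2 gave 3, and the replicate block, thinning to the smallest library and a fit of only the groups compared each gave 0. From day 0 to day 15 in WT mice, where 2 were called, no fold limit gave 5, DESeq2 gave 4, and offsets for GC content and length gave 4. In Hsf1 null mice, where 8 were called, DESeq2 gave 14. With each sample left out in turn the counts ran from 0 to 2 between the genotypes at day 15, from 0 to 3 in WT mice and from 0 to 9 in Hsf1 null mice, and a group left with 1 sample is assumed to vary like the others. The replicate block gave 2 genes in WT and 9 in Hsf1 null mice, and together with the offsets it gave 0 between the genotypes at day 15, 1 in WT mice and 2 in Hsf1 null mice. Deviations of same-numbered mice correlated at 0.14 between the treated genotypes, 0.15 between the times in Hsf1 null mice and -0.29 in WT mice. They correlated at 0.04 between the untreated genotypes, 0.11 between untreated Hsf1 null and treated WT mice, and -0.26 between untreated WT and treated Hsf1 null mice. With 2 mice per group, each group gives 1 deviation per gene, so these values cannot show whether the numbers pair the samples. A block with the 2 untreated WT mice exchanged, chosen after the data were seen, gave 3, 6 and 13 genes. Between untreated genotypes and for the difference in the change, 0 genes were called in every alternative run. Of 5424 values of single genes under the alternatives, 5118 kept their call or, if not called in either fit, moved by less than 1 SE. Among the latter the sign could change, as for Cct4 between the genotypes at day 15 (0.06, and -0.05 with the offsets). Another 42 newly passed, 66 no longer passed, and 198 that were not called moved by at least 1 SE of the fit. Of those called, 0 changed sign. The causes were not tested. Libraries of 2553348 counts and 2 mice per group limit what could be detected among low genes such as Dnajc6.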
